A study of Mus musculus with 6 samples.

Results

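BAMBI and the genes that carry and restrain transforming growth factor-β (TGF-β) signals were examined in mouse follicular B cells that had or lacked GPR174, a Gαs-coupled receptor for lysophosphatidylserine. The 10 genes were Bambi, the receptor genes Tgfbr1 and Tgfbr2, the signal carriers Smad2, Smad3 and Smad4, and the inhibitors Smad7, Ski, Skil and Tgif1. All 10 were among the 12431 genes of the count table, and all 10 passed the filter on low counts that left 10514 genes for testing. Bambi was chosen by its large difference between WT and KO in these same libraries, so its values are a description and carry no test. The other 9 genes were chosen by their place in the pathway, with earlier results of these data known.

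Follicular B cells (CD21/35- CD23+) were sorted from the spleens of adult male mice and cultured without stimulation for 1 h. WT cells were Gpr174+/Y, and KO cells were Gpr174-/Y with tdTomato, a fluorescent reporter, in place of the gene's only coding exon. There were 3 WT and 3 KO libraries from 3 mice per genotype, made with a kit that counts the 3′ ends of polyadenylated RNA. Total counts ran from 8452460 to 10876607 in WT and from 9232685 to 10944833 in KO.

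TGF-β binds the receptor TGFBR2, which recruits and phosphorylates TGFBR1. TGFBR1 then phosphorylates SMAD2 and SMAD3, and these enter the nucleus with SMAD4 to change transcription. In B cells the pathway is known for restraining proliferation and for directing class switching to IgA. Several of its inhibitors, among them SMAD7 and SKIL, are themselves induced by the signal and close a feedback loop.

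Of 8 follicular B markers, 7 were counted. Ms4a1 (CD20) lay between 1270 and 1410 CPM (counts scaled to library size) in all 6 libraries, and Fcer2a (CD23) between 403 and 571 CPM. Lower levels were found for Cd79a, between 44.5 and 58 CPM, and for Pax5, between 7.41 and 15.3 CPM. Cr2, which encodes the CD21/35 on which cells were gated as negative, was nevertheless counted at 981 to 1170 CPM. Gpr174 itself, on the X chromosome, was at 136, 125 and 121 CPM in WT and at 99.8, 100 and 99.8 CPM in KO (log2 fold change 0.35, edgeR adjusted p 0.0359, not called in 5 of the 6 fits without 1 library). RNA was thus still counted in KO, and since a gene total does not show which part was read, and an annotated pseudogene lies on the opposite strand, it gave no check of the genotype labels. Among markers of other cells, the summed level did not overlap between groups for NK cells, with 4 of 5 genes in the table (WT 7.27 to 13.2 CPM, KO 5.85 to 6.0 CPM), and for myeloid cells, with 6 of 6 (WT 35.2 to 45.1 CPM, KO 30.5 to 34.6 CPM). Of the NK genes, Gzma alone did not overlap between groups, Nkg7 had a log2 fold change of -0.26, Prf1 had 2 to 20 counts per library, and Ncr1 was not analysed here. Among the myeloid genes, Fcgr3 alone did not overlap between groups. Csf1r, the largest part of that sum, ran from 16.2 to 29.1 CPM in WT and from 20.3 to 23.1 CPM in KO. All 5 tested myeloid genes had a log2 fold change above 0. Cd14, which was not tested, averaged 0.906 CPM in WT and 1.22 CPM in KO. No gene of either list was called. The sum of 7 counted follicular B markers was 3980 to 4130 CPM in WT and 4570 to 4680 CPM in KO. Of these, 2 had a log2 fold change above 0, and Cd79b alone was called, lower in WT (log2 fold change -0.39, edgeR adjusted p 0.000358). The sum of 5 plasma cell genes, at 449 to 528 CPM in WT against 560 to 623 CPM in KO, was mostly Irf4 (331 to 402 CPM against 456 to 507 CPM), which was called lower in WT (log2 fold change -0.38, edgeR adjusted p 0.0043). The other plasma cell genes were not called, with log2 fold changes of 0.36 for Sdc1, 0.47 for Jchain, 0.02 for Xbp1 and 0 for Prdm1. Sums for marginal zone B (6 of 6 genes counted), T (5 of 6), plasmacytoid dendritic (3 of 5), erythroid (3 of 5) and platelet markers (5 of 5) overlapped. So did Pecam1, the only 1 of 6 endothelial and stromal markers counted. The T sum was mostly Lck, and the plasmacytoid dendritic sum mostly Tcf4 (627 to 690 CPM in WT, 603 to 644 CPM in KO). The erythroid sum was 2680 to 4710 CPM in WT and 3010 to 7570 CPM in KO, above Ms4a1 in every library. It was mostly Hbb-bs, at 3860, 2650 and 4650 CPM in WT and at 7450, 7420 and 2980 CPM in KO. All 3 tested erythroid genes had a log2 fold change below 0, and none was called. The part of these shifts in the differences of Bambi and the other genes was not tested, and in bulk RNA fewer cells of a type and less RNA per cell cannot be told apart.

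Bambi, a transmembrane pseudoreceptor that resembles the type I TGF-β receptors but lacks their kinase domain, was far more abundant in WT than in KO cells. It was counted 152, 180 and 140 times in WT replicates 1 to 3 and 43, 28 and 38 times in KO replicates 1 to 3. Scaled to library size, this was 13.9, 21.5 and 15.9 CPM in WT against 3.91, 3.05 and 3.7 CPM in KO. The groups lay far apart, with the lowest WT library 3.55-fold above the highest KO library, and WT replicate 2 was the highest of all. Mean levels were 17.1 CPM ± 3.92 in WT and 3.56 CPM ± 0.449 in KO (SD, n = 3). The fitted log2 fold change, WT over KO, was 2.25 ± 0.27 (SE), or 4.77-fold, which ranked 8 by absolute size among the 10514 genes tested. It was 2.06 without WT replicate 2, the library that gave the highest value, and at most 2.38 in any fit that left out 1 library. The gene lies on chromosome 18, as do Smad2, Smad4 and Smad7, and overlaps no other annotated gene.

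**Figure D1:**
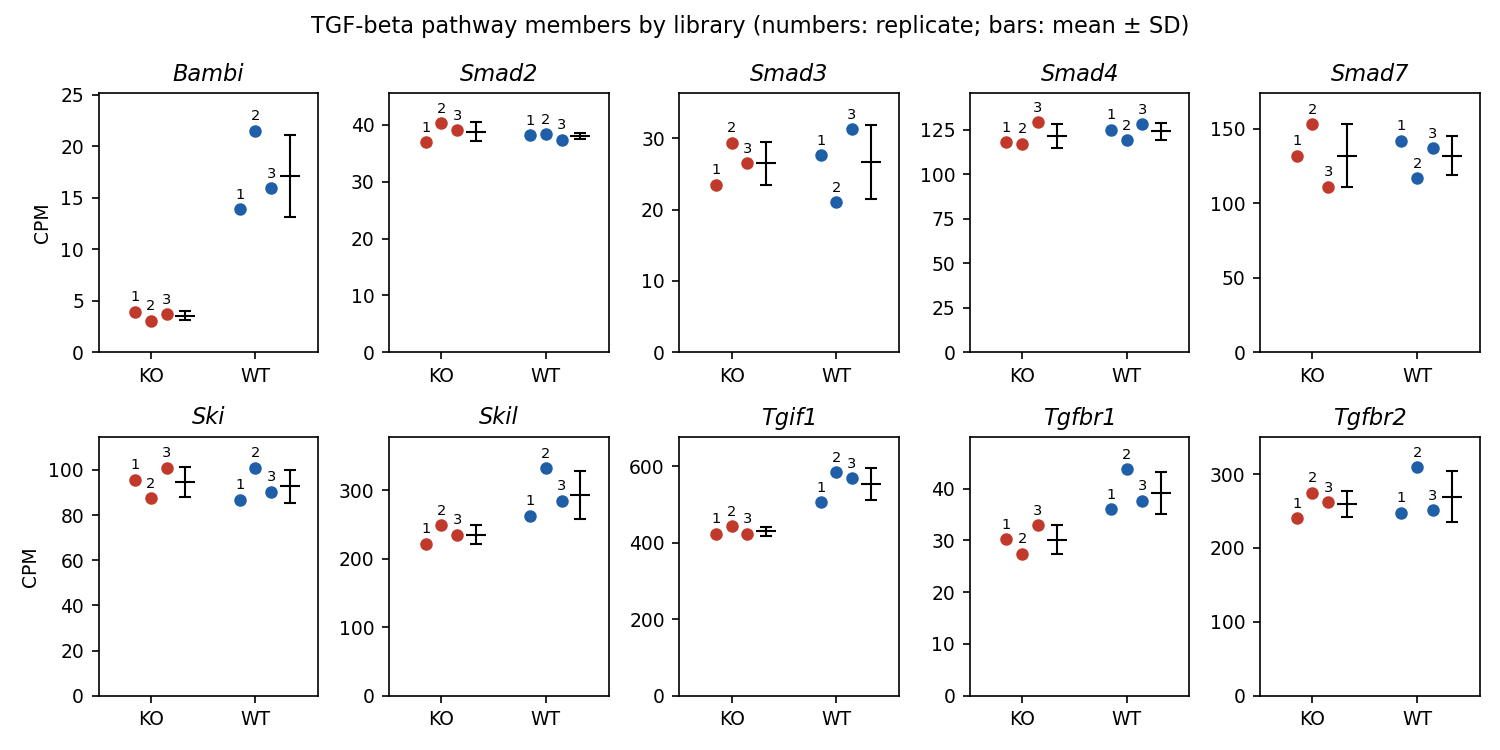
CPM of each of the 10 genes (vertical axes, each from 0) in the 3 KO and 3 WT libraries, numbered by replicate, with the mean ± SD of each group beside the points. KO and WT points are apart for Bambi, Skil, Tgif1 and Tgfbr1 and overlap for the other 6 genes, and Bambi runs from 3.05 to 3.91 CPM in KO and from 13.9 to 21.5 CPM in WT.

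Among the other 9 genes, 2 were called higher in WT at an edgeR adjusted p under 0.05, Tgif1 and Skil, and 0 were called lower, also by DESeq2 and by limma-voom and at an unadjusted p under 0.05. With Bambi the count was 3 of 10. Of all genes tested, 1.82% were called, 1.3% higher and 0.514% lower in WT, and nothing is read from the members' count against these shares because Bambi was picked on the same contrast. WT and KO values did not overlap in 4 of the 10 genes, Bambi, Skil, Tgif1 and Tgfbr1, where 16.7% of all genes tested did not overlap. The median log2 fold change of the 10 genes was 0.05, and that of all genes tested was -0.003.

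Both genes called higher encode nuclear corepressors that bind SMAD proteins. Tgif1 (chromosome 17, 70844205 to 70853546, mm10), which encodes a homeodomain protein that recruits histone deacetylases to SMAD complexes, was at 506, 585 and 569 CPM in WT and at 424, 443 and 423 CPM in KO. All 3 WT libraries were above all 3 KO libraries, and the KO libraries differed little among themselves. Means were 553 CPM ± 42.0 in WT and 430 CPM ± 11.7 in KO (SD, n = 3), a 1.29-fold difference. On the log2 scale the fitted difference was 0.36 ± 0.07 (SE), edgeR gave an adjusted p of 0.00249, and Tgif1 was called in all 6 fits without 1 library, at an adjusted p of up to 0.0371.

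Skil (chromosome 3, 31095058 to 31122577, mm10), which encodes SnoN, was at 263, 332 and 285 CPM in WT and at 222, 249 and 235 CPM in KO. The groups did not overlap, but the lowest WT library was only 1.06-fold above the highest KO library, and WT replicate 2 was again the highest. Its log2 fold change was 0.32 ± 0.08 (SE), or 1.25-fold, with an edgeR adjusted p of 0.0417. Skil was no longer called in 5 of the 6 fits without 1 library (adjusted p 0.227 without WT replicate 2, 0.0865 without WT replicate 3, and 0.226, 0.0729 and 0.205 without KO replicates 1, 2 and 3) and was called without WT replicate 1 (0.0119).

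The remaining inhibitors did not differ detectably. Smad7, which encodes the inhibitory SMAD that blocks the activated receptor and is a standard early readout of TGF-β signalling, was at 142, 117 and 137 CPM in WT and at 132, 153 and 111 CPM in KO. The highest and the lowest of these 6 values were both KO libraries. Its log2 fold change was 0.01, with a 95% interval from -0.21 to 0.22 and an edgeR adjusted p of 0.991. Ski (chromosome 4, 155154075 to 155222592, mm10), the proto-oncogene paralogous to Skil, was at 86.8, 101 and 90.4 CPM in WT and at 95.6, 87.4 and 101 CPM in KO. These ranges coincided almost entirely, with a log2 fold change of -0.03, an interval from -0.23 to 0.17 and an edgeR adjusted p of 0.941.

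The signal carriers did not differ detectably either. Smad2 lay between 37.4 and 38.4 CPM in WT and between 37.0 and 40.3 CPM in KO (log2 fold change -0.03, 95% interval -0.3 to 0.24, edgeR adjusted p 0.96). Smad3 (chromosome 9, 63646767 to 63757994, mm10) was at 27.6, 21.0 and 31.3 CPM in WT and at 23.5, 29.4 and 26.5 CPM in KO, and WT held both the highest and the lowest library (log2 fold change 0.01, interval -0.34 to 0.36, edgeR adjusted p 0.989). Smad4, the shared partner SMAD, lay between 119 and 128 CPM in WT and between 117 and 129 CPM in KO (log2 fold change 0.03, interval -0.15 to 0.22, edgeR adjusted p 0.924). An annotated pseudogene lies on the strand opposite Smad4, and the use of strand in counting was not stated, so the Smad4 count is uncertain.

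Neither receptor gene was called. Tgfbr1 (chromosome 4, 47353222 to 47414931, mm10), the signalling kinase of the receptor pair, was at 36.0, 43.8 and 37.7 CPM in WT and at 30.2, 27.4 and 32.9 CPM in KO. Every WT library was above every KO library, but the difference did not pass the adjusted threshold. Its log2 fold change was 0.37 ± 0.14 (SE), with a 95% interval from 0.08 to 0.67 that is not adjusted for the number of genes, an unadjusted p of 0.0152 and an edgeR adjusted p of 0.248. Tgfbr2 (chromosome 9, 116084293 to 116175360, mm10), the ligand-binding kinase, was at 248, 309 and 251 CPM in WT and at 240, 275 and 262 CPM in KO. The groups overlapped, and WT replicate 2 alone stood above the rest (log2 fold change 0.06, interval -0.12 to 0.23, edgeR adjusted p 0.853).

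**Figure D2:**
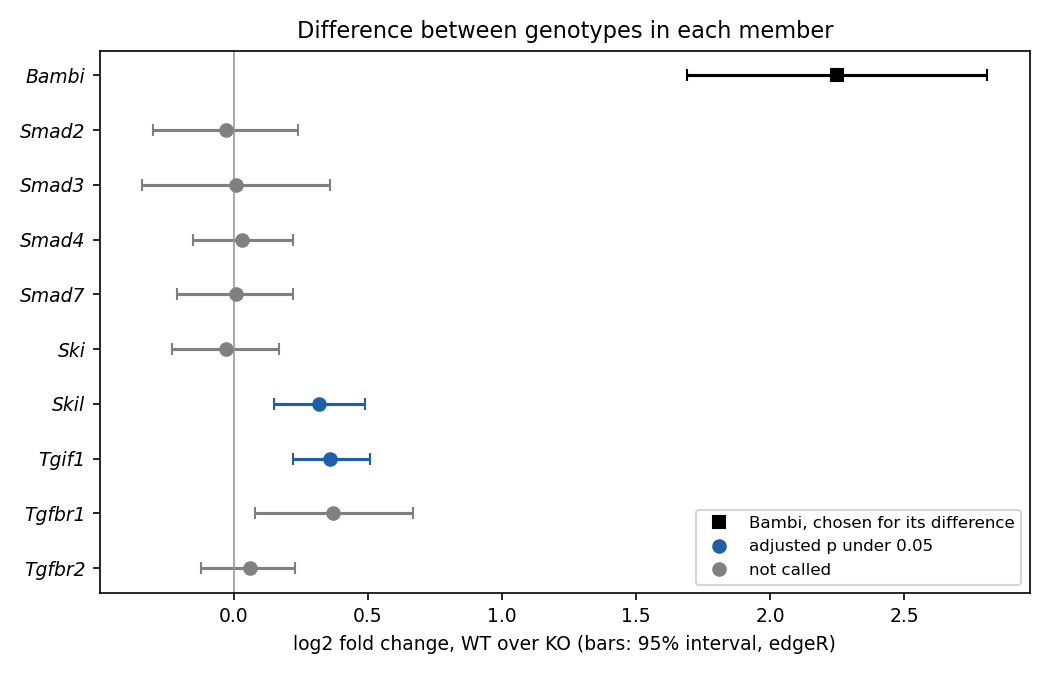
Log2 fold change (WT over KO, horizontal axis) of each of the 10 genes with its 95% interval from the edgeR fit, not adjusted for the number of genes. Bambi, the square at 2.25, was chosen for its difference, the intervals of Skil, Tgif1 and Tgfbr1 lie above 0, and those of the other 6 genes cross 0.

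Promoters from RefSeq (build GRCm38.p6) were examined for 5 of the 10 genes, Tgfbr1, Tgfbr2, Smad3, Ski and Tgif1. Those of Bambi, Skil, Smad2, Smad4 and Smad7 were not examined. The 10 entries of the 5 genes each run from 250 bases before to 50 bases after a transcription start. They were searched on both strands for the cAMP response element TGACGTCA, for its shorter core TGACG, which the longer motif contains, and for the palindromic SMAD element GTCTAGAC. None of the 10 entries held any of the 3 motifs, which are found in 1.79%, 20.8% and 0.213% of the 32851 promoters of this length. This says only that these letters are not in these windows. Shown 5′ to 3′ are Tgif1 (1 of its 5 entries, chr17:70849741-70850040, minus strand), as the called gene among them, Tgfbr1 (1 of its 2, chr4:47352972-47353271, plus strand), as the receptor whose groups did not overlap, and Smad3 (chr9:63757945-63758244, minus strand), as a carrier that did not differ detectably. Capitals mark the last 50 bases, which follow the start.
Tgif1: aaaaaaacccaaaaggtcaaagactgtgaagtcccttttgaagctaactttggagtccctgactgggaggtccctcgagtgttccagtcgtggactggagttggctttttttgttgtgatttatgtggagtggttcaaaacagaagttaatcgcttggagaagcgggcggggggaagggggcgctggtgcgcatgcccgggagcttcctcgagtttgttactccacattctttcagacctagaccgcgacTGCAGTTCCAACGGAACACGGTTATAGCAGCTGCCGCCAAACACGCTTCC
Tgfbr1: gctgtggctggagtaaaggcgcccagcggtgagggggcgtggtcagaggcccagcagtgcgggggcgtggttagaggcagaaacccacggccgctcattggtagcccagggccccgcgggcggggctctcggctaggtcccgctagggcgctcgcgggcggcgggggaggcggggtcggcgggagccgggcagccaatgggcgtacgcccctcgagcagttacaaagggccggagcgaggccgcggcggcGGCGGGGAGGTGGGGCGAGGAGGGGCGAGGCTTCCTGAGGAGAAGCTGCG
Smad3: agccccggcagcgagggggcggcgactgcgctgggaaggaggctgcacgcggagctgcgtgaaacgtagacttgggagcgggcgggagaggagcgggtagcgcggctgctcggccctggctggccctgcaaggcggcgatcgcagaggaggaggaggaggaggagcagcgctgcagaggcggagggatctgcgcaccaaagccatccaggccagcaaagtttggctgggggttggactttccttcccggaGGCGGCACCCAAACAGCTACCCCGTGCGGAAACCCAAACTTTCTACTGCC
The GC content of these windows was 52% for Tgif1, 74.7% for Tgfbr1 and 67.7% for Smad3, with 15, 34 and 25 CpG dinucleotides.

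WT replicate 2 held the highest CPM of all 6 libraries for Bambi, Skil, Tgif1, Tgfbr1 and Tgfbr2, and the lowest for Smad3. Without it the log2 fold changes of Tgif1, Skil and Tgfbr1 were 0.32, 0.22 and 0.29, and of these genes only Tgif1 was called (edgeR adjusted p 0.0131). To set genes against a partner counted in the same library, which needs no scaling between libraries, 4 log2 count ratios were computed, chosen after the values were seen. The Skil to Ski ratio was 1.66 ± 0.06 in WT and 1.32 ± 0.17 in KO (SD, n = 3), and the Tgfbr1 to Tgfbr2 ratio was -2.78 ± 0.04 in WT and -3.10 ± 0.19 in KO. The Tgif1 to Tgif2 ratio differed less, at 2.91 ± 0.07 in WT and 2.75 ± 0.05 in KO. None of these ratios overlapped between groups, nor did that of Id2 to Id3 given below, and each had a two-sided exact permutation p of 0.1, also after adjustment over the 4 ratios, which is the smallest that 3 against 3 libraries allow.

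To place Bambi among the rest of the pathway, 86 genes in 6 lists were examined, 10 of them the genes above. Of these, 67 were in the table and 52 were tested, and 7 were called higher in WT and 0 lower (0 lower also by DESeq2 and by limma-voom, and 1 lower at an unadjusted p under 0.05), with a median log2 fold change of 0.12. These counts include Bambi, which was picked on this contrast, so nothing is read from them against the 1.3% of all genes tested that were called higher. Of the 42 tested genes outside the 10, 4 were called higher and 0 lower, with a median log2 fold change of 0.13 beside -0.003 for all genes tested. The calls fell in 2 of the 6 lists, and the lists were not tested against each other. Among 16 tested negative regulators, 4 were called higher, Bambi, Skil, Tgif1 and Pmepa1 (median log2 fold change 0.12). Among 14 tested genes commonly induced by TGF-β or BMP, 5 were called higher, Id2, Cdkn1a, Pmepa1, Tsc22d1 and Skil (median 0.26), and Pmepa1 and Skil stand in both lists.

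Pmepa1 (chromosome 2, 173224458 to 173276533, mm10), which encodes a membrane protein that holds SMAD2 and SMAD3 away from the receptor and is itself induced by TGF-β, was at 111, 132 and 108 CPM in WT and at 62, 75.6 and 75.6 CPM in KO. The groups were well apart, with means of 117 CPM ± 13.4 and 71.1 CPM ± 7.86 (SD, n = 3). Its log2 fold change was 0.72 ± 0.11 (SE), or 1.65-fold, with an edgeR adjusted p of 0.000121, and the call was kept in all 6 fits that left out 1 library. Of the negative regulators other than Bambi it had the largest difference.

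Id2 (chromosome 12, 25093799 to 25097140, mm10), whose product binds E proteins and keeps them from DNA, was at 31.5, 37.4 and 37.8 CPM in WT and at 12.4, 19.3 and 18.8 CPM in KO. All WT libraries were well above all KO libraries, 2.12-fold in the fit or 1.08 ± 0.18 on the log2 scale (SE, edgeR adjusted p 0.000498), and Id2 was called in all 6 fits without 1 library. Its relative Id3, also a gene that BMP and TGF-β signals induce, gave 183, 134 and 109 CPM in WT and 196, 153 and 174 CPM in KO. These values overlapped (log2 fold change -0.29, edgeR adjusted p 0.657), but without WT replicate 1 Id3 was called lower in WT (log2 fold change -0.52, adjusted p 0.00824). The Id2 to Id3 log2 count ratio was -1.97 ± 0.52 in WT and -3.39 ± 0.52 in KO (SD, n = 3). Id1 held at most 15 counts in a library and was not tested.

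Cdkn1a, which encodes the cell cycle inhibitor p21, was at 20.1, 21.8 and 20.8 CPM in WT and at 11, 10.8 and 8.38 CPM in KO. The WT libraries were close together and well above KO (log2 fold change 1.05 ± 0.21 (SE), edgeR adjusted p 0.00397), and the call was lost without KO replicate 3 (0.0529). Tsc22d1, named as a TGF-β-stimulated clone, was at 91.2, 81.6 and 83.2 CPM in WT and at 68.6, 63.3 and 52.7 CPM in KO, 1.39-fold or 0.47 ± 0.11 on the log2 scale (SE, edgeR adjusted p 0.0187). It was not called in 4 of the 6 fits without 1 library (adjusted p 0.0944 and 0.0589 without WT replicates 1 and 3, and 0.0729 and 0.23 without KO replicates 2 and 3). Id2, Cdkn1a and Tsc22d1 are each known to respond to many signals besides TGF-β. An annotated transcript lies on the strand opposite Cdkn1a, and others on the strand opposite Tgfb3, Tgif2, Thbs1, Acvrl1, Nedd9, Runx3, Rnf43, Lef1 and Ccnd1, so the counts of these genes are uncertain.

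Other genes of the induced list gave no call. Klf10, an early TGF-β-induced transcription factor, averaged 42.1 CPM ± 3.5 over the WT and 41.6 CPM ± 3.45 over the KO libraries (SD, n = 3). The log2 fold change was 0.02 (95% interval -0.25 to 0.29, edgeR adjusted p 0.976). Tgfbi, which encodes an extracellular matrix protein, had the largest log2 fold change of the list at 1.52 ± 0.59 (SE), but it rested on 7 to 41 counts per library and was not called (edgeR adjusted p 0.259). Gadd45b (log2 fold change 0.42), Nedd9 (0.21) and Runx3 (0.20) did not overlap between groups and had edgeR adjusted p values of 0.0894, 0.144 and 0.214. Of all genes tested, 16.7% did not overlap.

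**Figure D3:**
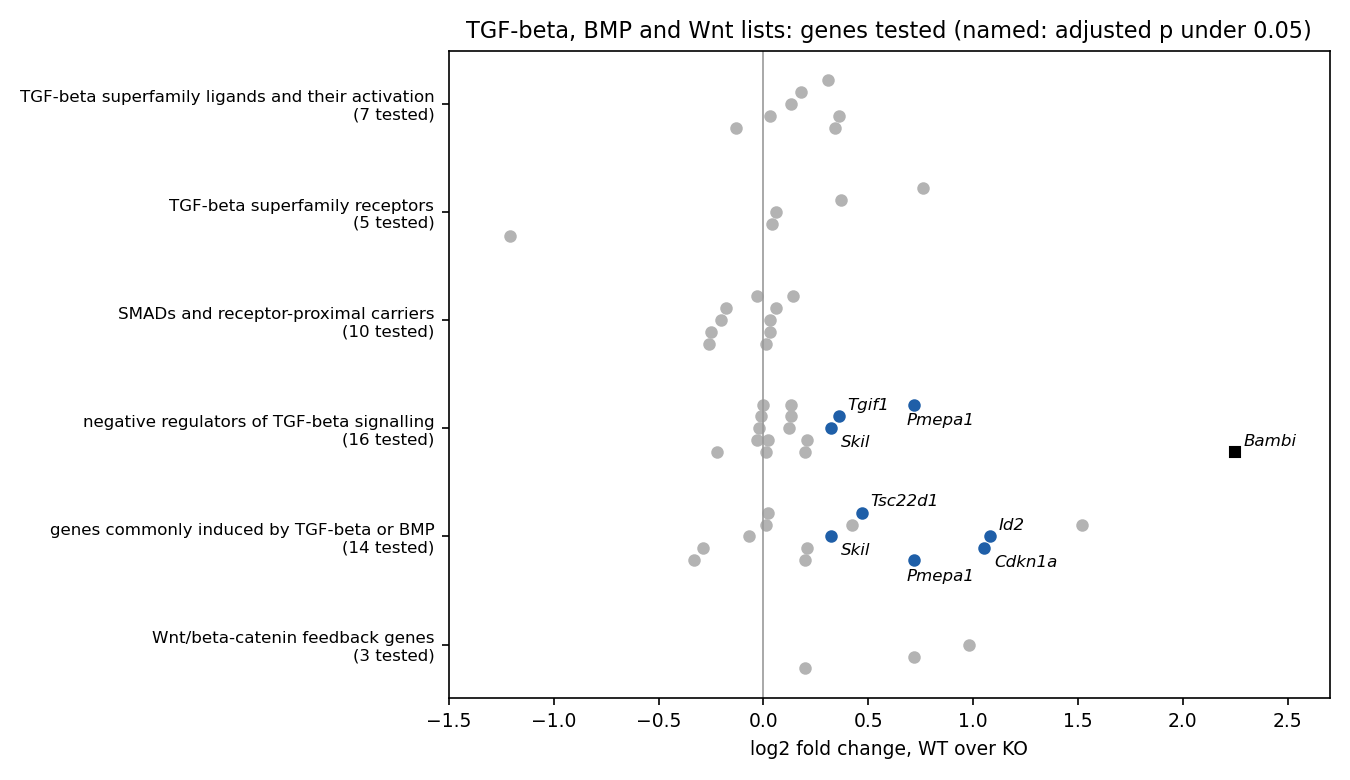
Log2 fold change (WT over KO, horizontal axis) of each tested gene in 6 lists of pathway genes (rows, with the number tested), where genes at an adjusted p under 0.05 are named and Bambi is the square. All named genes lie right of 0 and belong to the negative regulators or to the genes commonly induced by TGF-β or BMP.

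None of the 7 tested ligands and ligand-activating genes was called. Tgfb3, which encodes a TGF-β isoform, was higher in every WT library (44.1 to 47.8 CPM) than in every KO library (32.2 to 39.8 CPM), and was not called (log2 fold change 0.36 ± 0.13 (SE), edgeR adjusted p 0.219). Tgfb1, another isoform, had a log2 fold change of 0.31 ± 0.29 (edgeR adjusted p 0.754). It averaged 8.5 CPM in WT and 6.84 CPM in KO, below the means of Tgfb3 (45.5 and 35.4 CPM). Thbs1, whose product activates latent TGF-β, had a log2 fold change of 0.34 ± 0.83 on 1 to 27 counts per library. None of the 5 tested receptor genes was called, and the largest differences, in Acvrl1 (log2 fold change -1.21 ± 0.80) and Acvr1b (0.76 ± 0.86), rested on at most 19 counts per library. Acvrl1 was below every KO library in every WT library, while Acvr1b overlapped.

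None of the 10 tested SMADs and receptor-proximal carriers was called. Smad1 and Smad5, which carry BMP signals, had log2 fold changes of -0.25 and -0.20 (edgeR adjusted p 0.65 and 0.415), and Hgs, an endosomal adaptor, of -0.26 (0.527). Since BAMBI has also been linked to Wnt signalling, 9 Wnt feedback genes were listed, of which 3 were tested and none was called. Their log2 fold changes were 0.72 for Ccnd1, 0.98 for Rnf43 and 0.20 for Lef1 (edgeR adjusted p 0.227, 0.651 and 0.845). Across these 4 lists, 0 calls were made by edgeR, and also 0 by DESeq2 and by limma-voom, while 4 of their 25 tested genes had an unadjusted edgeR p under 0.05, as did 11.9% of all genes tested.

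**Figure D4:**
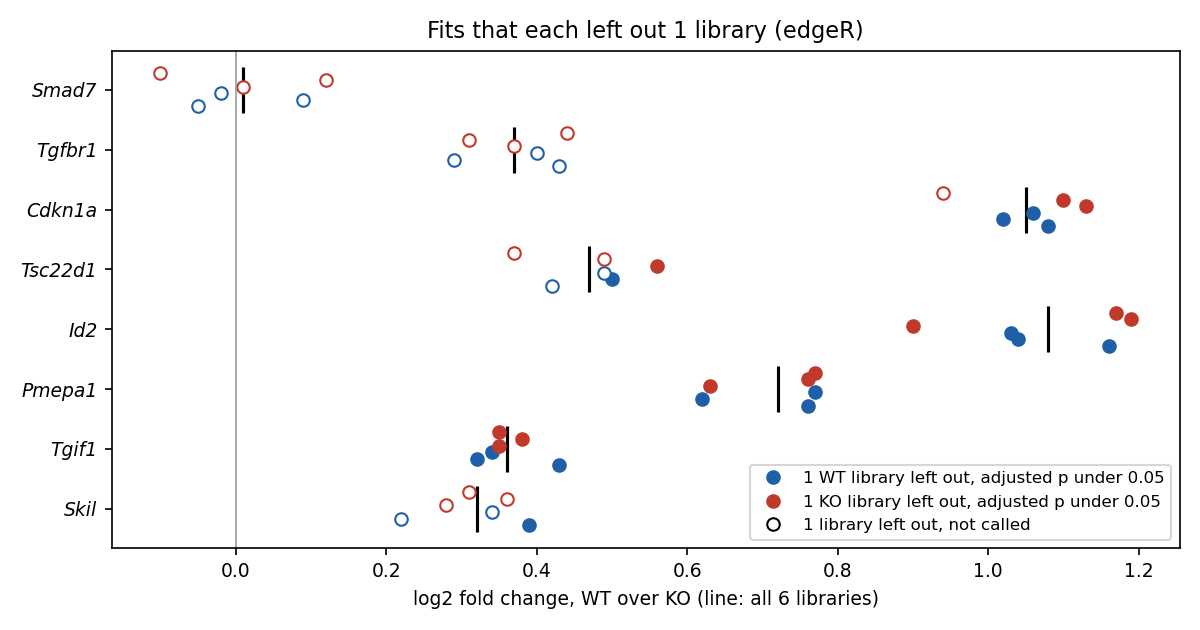
Log2 fold change (WT over KO, horizontal axis) of 8 genes in the 6 fits that each left out 1 library, coloured by the genotype of the library left out, filled where the gene was called and open where it was not, with a vertical line at the value from all 6 libraries. Tgif1, Pmepa1 and Id2 stay filled throughout, Skil is filled only without WT replicate 1, Smad7 falls on both sides of 0, and Tgfbr1 stays between 0.29 and 0.44 and open.

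The genes whose levels followed that of Bambi most closely over the 6 libraries were then listed, among the 9681 other tested genes whose mean count reached 20. By Pearson's correlation of log2 CPM over 6 libraries, these were Zfp106, Aplp2, Psmc3ip, Dusp1, Gzma, Rbm18, Btg2 and Trp53inp2, with r from 0.989 to 0.998. All 8 were highest in WT replicate 2 and higher in every WT than in every KO library, and the 6 points share this split between genotypes. Dusp1, a phosphatase of MAP kinases (log2 fold change 0.76), and Btg2, an antiproliferative gene (0.65), were called higher in WT, with edgeR adjusted p values of 0.000121 and 5.59e-07. The other 6 were not called, among them Gzma, the NK gene granzyme A, which ran from 4.67 to 6.68 CPM in WT libraries and from 2.4 to 2.91 CPM in KO libraries and is also in the NK list above. Of the pathway members, Tgif1 had an r of 0.95 with Bambi (rank 63 of 9681), Tgfbr1 of 0.93 (rank 137) and Skil of 0.87 (rank 324), while the other 6 lay between -0.40 and 0.31. Tgif1, Tgfbr1 and Skil are also the members whose groups did not overlap. Bambi was chosen on that split, so these ranks are a description and add no separate support.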

How the data were processed

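The data were 6 libraries of mouse spleen follicular B cells, 3 WT and 3 KO, grouped by the genotype in their labels, with replicates numbered as in the titles and, per the series design, from 3 mice per genotype. The deposited values were raw counts per gene, made by the authors from 50-base single-end reads of 3′-end libraries aligned to mm10. The processing notes list STAR, HTSeq and DESeq2. Tool versions, the gene annotation and whether strand was used are not given in the sources used here. Libraries were not pooled, the lowest total of any gene in the table was 10 counts, and reads carried no stated molecular identifiers, so counts may include PCR copies.

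Genes were filtered with filterByExpr, scaled by TMM and tested with edgeR 4.0.16 (R 4.3.3; robust quasi-likelihood F test, genotype only), with Benjamini-Hochberg adjustment over the 10514 genes tested and a threshold of 0.05. CPM used TMM-scaled library sizes, SE was taken as the absolute log2 difference over the root of the F statistic, and intervals are 95% and per gene. Each count-model test was checked on simulated data, and the permutation test on small made-up sets with a known answer. Alternatives were DESeq2 1.42.0, limma-voom (limma 3.58.1), other scaling factors, other filters, a replicate block and fits without each library. Replicates of a genotype differed by more than counting noise (chi-square per degree of freedom 6.89 to 10.9).

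Members, lists and tests were chosen with earlier results of these data known. Named were the 10 members, in each pathway list the called genes and the 3 with the largest absolute log2 fold change, the 8 genes most correlated with Bambi, and Gpr174. Id1, Id3, Klf10, Gadd45b, Nedd9, Runx3, Tgif2 and the marker genes were named after their values were seen. Of 143 listed genes, 108 matched by symbol, 4 by synonym, and 31 were not analysed here. Positions are from GENCODE vM21 and promoters from RefSeq.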

Additional observations from a re-analysis of the deposited data

How the results depend on the processing

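The number of the 10 members called was 3 from all libraries and under all 8 alternatives that kept them, and 2 to 3 in the fits without 1 library. This count and that of the pathway genes include Bambi, which was picked on this contrast, so both are a description. Of the other 9 members, Tgif1 was called in every fit. Skil was called under all 8 alternatives but in only 1 of the 6 fits without 1 library. The number of pathway genes called was 7 under the same 8 alternatives, and ran from 4 (without KO replicate 3) to 7 (without WT replicate 1, where 6 were higher and Id3 was lower). Of the 10514 genes tested, 191 (1.82%) were called. The count was 258 by DESeq2, 196 by limma-voom, 218 of 12431 without a filter and 222 of 8554 with a mean of at least 50 counts. In the fits without 1 library, which have fewer samples, it ran from 91 (without KO replicate 3) and 113 (without KO replicate 2) up to 183. Signs turned only in values near 0 or at low counts that were not called, and the cause was not tested. In the fits without 1 library the log2 fold change ran from -0.12 to 0.15 for Smad3, from -0.10 to 0.12 for Smad7, from -0.09 to 0.02 for Ski, from -0.05 to 0.11 for Tgfbr2 and from -0.43 to 1.25 for Thbs1. With upper-quartile factors Smad7 was at 0.

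The labels give WT and KO libraries the same numbers and do not state whether same-numbered libraries were paired. The correlations of their deviations were 0.05, 0.014 and 0.043, although 6 of 6 libraries correlated best with their own number. These 6 matches come from the same correlations between WT and KO libraries and are not separate agreements. They are at most a weak hint from the data and do not show the design. With the replicate block, 3 members and 7 pathway genes were called, Bambi among both, and 281 of the 10514 genes tested. At these depths a gene such as Thbs1, with 1 to 27 counts per library, allows no firm statement.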
